A study of Homo sapiens with 66 samples.

Results

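Carfilzomib (CFZ) is a proteasome inhibitor used against multiple myeloma, and the question here was how the RNA of AMO1 cells, an established human myeloma line, differed after 6 h with this drug. The comparison used 6 of the 66 RNAseq libraries of the study, namely 3 of AMO1 cells given CFZ for 6 h and 3 of AMO1 cells given the solvent, 0.1% DMSO, for the same time. The libraries were chosen by treatment and time and not by any measured value, and all genes that passed a filter on low counts were tested. The files count 20167 genes, of which 10470 passed. The labels give no CFZ dose, and a figure legend of the study gives 10 nM. AMO1 cells are marked WT, for wild type, in the sample names, in contrast to the CFZ-resistant L363 subline of other libraries in the series. The sample names give no altered gene for either group. The study's methods describe triplicates as biological in general, but neither they nor the labels say how the cultures of these libraries were kept apart, and the p-values measure only the spread between these samples. For context the same CFZ libraries were set against AMO1 cells given 1 µM NCP26, an inhibitor of prolyl-tRNA synthetase, for 6 h, and the CFZ effect was compared with that at 24 h.

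The proteasome is a barrel of proteases, the 20S core, capped by the 19S regulatory particle, which takes up proteins tagged with ubiquitin, unfolds them and feeds them in. CFZ binds the chymotrypsin-like subunit of the core, PSMB5. Cells with a blocked proteasome accumulate misfolded and tagged proteins, and several transcription factors are known to answer. HSF1 drives chaperone genes of the heat shock response through repeats of the letters GAA and TTC in their promoters. NFE2L1 drives the genes of the proteasome itself, and its relative NFE2L2 (NRF2) drives genes of antioxidant defence, both through the antioxidant response element. ATF4 drives the integrated stress response (ISR), which starts when a kinase phosphorylates the translation factor eIF2α. Plasma cells and myeloma cells, which secrete large amounts of antibody, lean on these systems for folding and disposal, and proteasome inhibitors are a standard treatment of the disease.

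Chaperone genes of the heat shock response led the rises in CFZ-treated cells, with stress transcription factors among the next, while SDC1 and genes of cell division were lower. Fold changes are given as log2 values with their standard errors (SE), and a gene was called where the adjusted p of the quasi-likelihood test of edgeR, adjusted by Benjamini-Hochberg over all genes tested, was under 0.05. CFZ changed 2820 of 10470 genes (26.9%), with 1475 higher (14.1%) and 1345 lower (12.8%). The Wald test of DESeq2, given 15751 genes with a count, called 1728, with 987 higher and 741 lower. At least 2-fold differences were called for 160 higher genes (1.53%) and 145 lower genes (1.38%). The 3 CFZ libraries did not overlap the 3 DMSO libraries for 4165 genes (39.8%). The median log2 fold change of all genes was −0.01, and the range from the 5th to the 95th percentile was −0.65 to 0.62. Levels are counts per 1000000 counts of the library (CPM), scaled by edgeR's trimmed mean of M-values (TMM).

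The scaling matters for small changes. The 41 listed heat shock genes that have counts on file, tested or not, took up 4.88% to 4.96% of all counts in CFZ libraries. In DMSO libraries they took up 0.806% to 0.815%. If each library is scaled to its total count, the median of all genes moves to −0.21, and 648 genes are called higher and 3459 lower. What share of this shift came from heat shock genes was not tested. Counts with this scaling are given below for most groups of genes. They are to be read beside 648 and 3459 of all 10470 genes, not beside 14.1% and 12.8%. Total counts ran from 3095344 to 3790298 (median 3291477) with CFZ and from 2913987 to 3183765 (median 3044105) with DMSO. Replicates of a group correlated at 0.984 to 0.988 in log2 CPM. Of the genes tested, 20 passed the filter only through their CFZ libraries and 73 only through their DMSO libraries, so these had to differ. Mitochondrially encoded genes took 4.29% to 4.51% of counts with CFZ and 4.76% to 4.89% with DMSO.

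**Figure D1:**
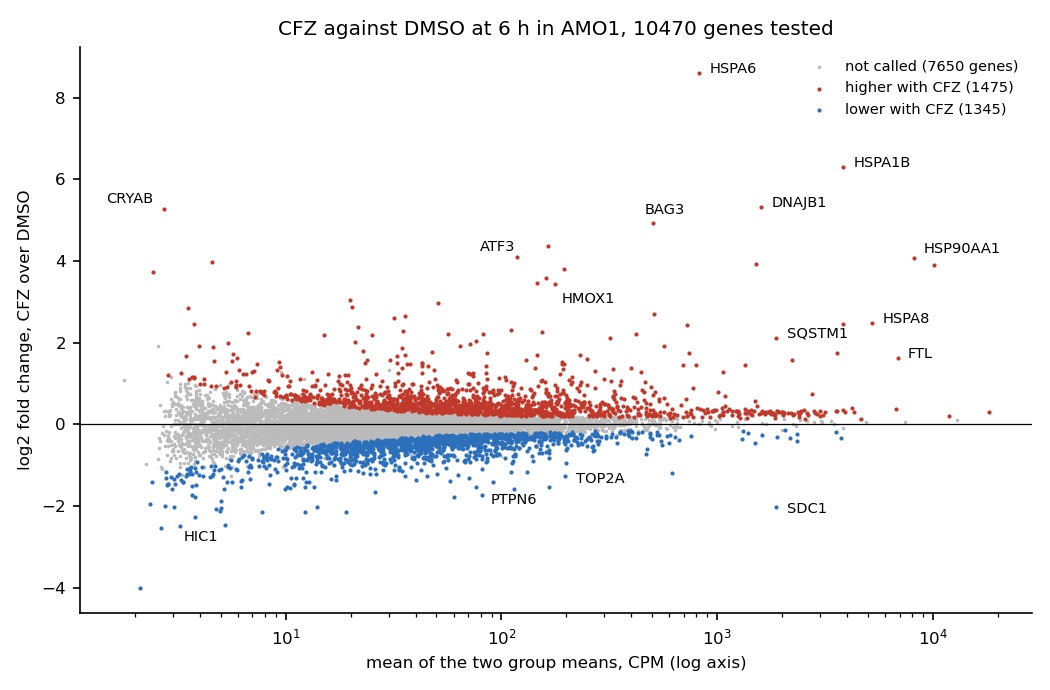
Log2 fold change of CFZ over DMSO at 6 h (vertical axis) against the mean of the 2 group means in CPM (log axis) for the 10470 genes tested. Red points are the 1475 genes called higher, blue points the 1345 called lower and grey points those not called. The genes farthest above 0 are HSPA6, HSPA1B, DNAJB1 and BAG3, apart from CRYAB, whose controls hold 0 to 1 counts, and SDC1 has the highest level of the falls named in the plot.

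The labelled cell type was checked by its markers. All 12 plasma cell markers were tested, among them SDC1, IRF4, PRDM1, TNFRSF17 and JCHAIN, and their summed level ran from 6420 to 6621 CPM with CFZ and from 9451 to 9705 CPM with DMSO. SDC1 accounted for 74.7% of the net gap between the means and JCHAIN for 27.6%, while SLAMF7, XBP1 and IRF4 had higher means with CFZ. Of 31 markers of B cells, T and NK cells, myeloid, stromal, endothelial and red cells, 30 were in the table, 8 had no count in any of the 6 libraries and 1, CD4, was high enough to be tested. Their summed level was 174 to 187 CPM with CFZ and 184 to 197 CPM with DMSO, ranges that overlap, and most of it was CD4 (log2 fold change −0.13 ± 0.070, adjusted p = 0.169), which was not called.

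The strongest rise was that of the HSP70 genes, whose proteins bind unfolded stretches of other proteins. HSPA6, an HSP70 that is nearly silent without stress (chromosome 1, 161524540 to 161526894, plus strand, GRCh38), had 1608, 1667 and 1672 CPM with CFZ and 2.93, 4.66 and 5.06 CPM with DMSO. The DMSO values rest on 10 to 16 counts per library. Its mean level was 391 times higher with CFZ (log2 fold change 8.61 ± 0.104, adjusted p = 1.86e-24), and no CFZ library came near a DMSO library. HSPA1A and HSPA1B encode the same inducible HSP70 and lie next to each other in the class III region of the major histocompatibility complex (chromosome 6, 31815543 to 31817946, plus strand, and chromosome 6, 31827738 to 31830254, plus strand). Of their 31-base words 73% to 76% are shared with other transcripts, so reads cannot be divided between them with certainty, and their sum is the safer value. The sum was 7784, 7373 and 7831 CPM with CFZ and 117, 126 and 134 CPM with DMSO (log2 fold change 5.93 ± 0.062, adjusted p = 3.27e-25). The 3 treated libraries lay far above the 3 controls. HSPA8, the constitutive HSP70 of the cytosol, had 8911, 8574 and 9009 CPM with CFZ and 1613, 1630.3 and 1508 CPM with DMSO (log2 fold change 2.48 ± 0.047, adjusted p = 8.89e-21). HSPH1, an HSP110 that helps HSP70 to release its nucleotide, had 2844, 2898 and 2725 CPM with CFZ and 180.3, 183 and 193 CPM with DMSO (log2 fold change 3.93 ± 0.058, adjusted p = 8.73e-23). For both genes every CFZ library exceeded every DMSO library. Of the 9 tested genes of the HSP70 and HSP110 group 8 rose, and HSPA14, a member that works at the ribosome, did not pass the test (log2 fold change 0.17 ± 0.096, adjusted p = 0.216).

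J-domain proteins, which hand clients to HSP70 and trigger its ATPase, rose in 6 of 8 tested cases. DNAJB1, the main partner of inducible HSP70 and itself a heat shock gene, had 3164, 3044 and 3134 CPM with CFZ and 74.7, 81.7 and 76.2 CPM with DMSO (log2 fold change 5.33 ± 0.063, adjusted p = 1.86e-24). DNAJA1 had 679, 672 and 711 CPM with CFZ and 140.1, 156 and 150.2 CPM with DMSO (log2 fold change 2.21 ± 0.067, adjusted p = 6.73e-17). These levels did not overlap between the groups. DNAJA2, a close relative of DNAJA1, had 70.3, 81.8 and 72.6 CPM with CFZ and 58.3, 70.5 and 68.6 CPM with DMSO (log2 fold change 0.19 ± 0.097, adjusted p = 0.163), and its groups overlapped.

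HSP90 and its co-chaperones, which mature kinases and receptors, rose in 8 of 9 cases. HSP90AA1, the inducible HSP90 of the cytosol, had 15630.0, 15097 and 15289.5 CPM with CFZ and 852, 911 and 952 CPM with DMSO (log2 fold change 4.08 ± 0.050, adjusted p = 1.86e-24). CHORDC1, a co-chaperone, had 188, 190.4 and 176 CPM with CFZ and 36.9, 39.1 and 36.4 CPM with DMSO (log2 fold change 2.30 ± 0.087, adjusted p = 4.8e-15). Both genes were several times higher in each treated library than in any control. HSP90AB1, the constitutive form, changed by 1.74 ± 0.048 on the log2 scale (adjusted p = 1.13e-17), and CDC37, which brings kinases to HSP90, did not pass the test (log2 fold change 0.14 ± 0.065, adjusted p = 0.124).

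BAG3 links HSP70 to autophagy of aggregates. It had 1029, 966 and 942 CPM with CFZ and 34.6, 29.8 and 31 CPM with DMSO (log2 fold change 4.94 ± 0.081, adjusted p = 5.62e-22), a mean 30.8 times higher. HSPB1, a small heat shock protein that holds unfolded proteins in solution, had 1231, 1229 and 1204 CPM with CFZ and 249, 228 and 197 CPM with DMSO (log2 fold change 2.44 ± 0.071, adjusted p = 3.59e-17). Again no treated library overlapped a control. CRYAB, another small heat shock protein, had 11 to 23 counts per library with CFZ and 0 to 1 with DMSO, too few in the controls for a fold change. BAG1, which also binds HSP70, did not pass the test (log2 fold change −0.01 ± 0.080, adjusted p = 0.949). Of the 4 heat shock factor genes, HSF1, HSF2, HSF4 and the inhibitor HSBP1, 0 were called by edgeR and 0 by DESeq2, and 1, HSBP1, had an unadjusted p under 0.05 (adjusted p = 0.0523). HSF1 itself had 72.0, 68.0 and 71.8 CPM with CFZ and 70.3, 68.4 and 67.4 CPM with DMSO (log2 fold change 0.04 ± 0.086, adjusted p = 0.778), with overlapping groups. In all 26 of 37 tested heat shock genes rose (70.3%, against 14.1% of all genes), 22 of them at least 2-fold, and 11 were not called. CRYAB passed the filter only through its CFZ libraries and so had to differ, and without it 25 of 36 rose (69.4%), 21 at least 2-fold, with a median log2 fold change of 1.37 against −0.01 for all genes. Under scaling by total counts, 25 rose and 3 fell, with a median of 1.17.

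**Figure D2:**
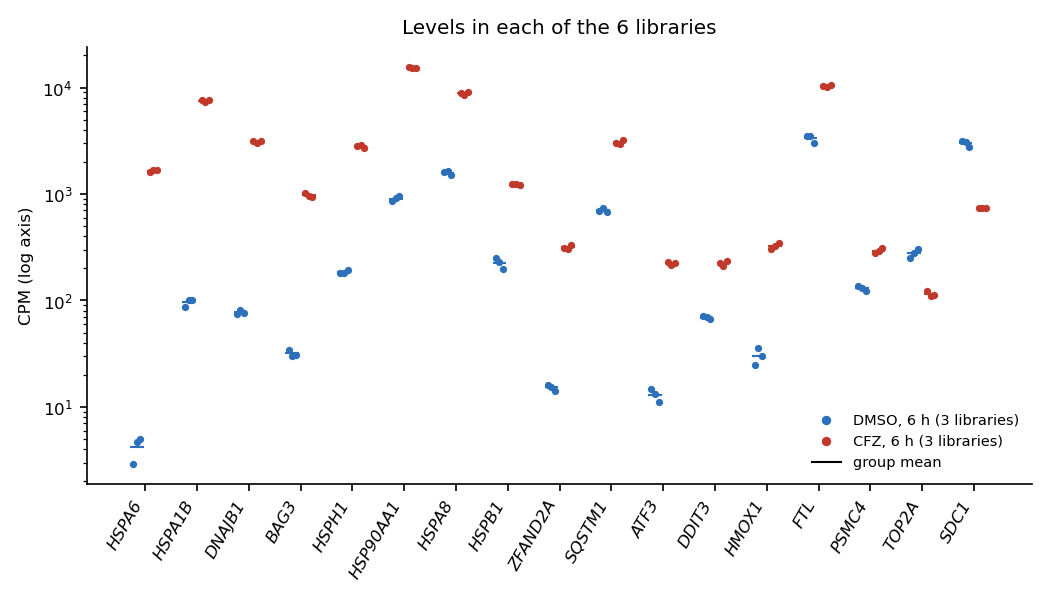
Levels in CPM (log axis) of 17 genes in each of the 6 libraries, with DMSO in blue, CFZ in red and group means as lines. For 15 genes, from HSPA6 to PSMC4, all CFZ points lie above all DMSO points, and for TOP2A and SDC1 they lie below.

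Promoter sequences are shown for heat shock genes because their letters carry the motif of the factor named above. They are RefSeq promoters of GRCh38.p14, each given as the bases just before the transcription start, 5′ to 3′ on the strand of the gene. Capitals in the first 6 mark the heat shock element, searched on both strands as 3 units that alternate between GAA and TTC with any 2 bases between neighbours. It began 74 bases before the start in HSPA6, 88 in HSP90AA1 and 76 in SERPINH1, the gene of the collagen chaperone HSP47. HSPA8 had 2 matches, at 230 and 55 bases before the start, of which the line printed here reaches only the nearer one. HSP90AB1 had 2 matches, at 165 and 112 bases before the start, and CHORDC1 had 3 that overlap, at 60, 55 and 50 bases.
HSPA6, chr1:161524390-161524539, plus strand: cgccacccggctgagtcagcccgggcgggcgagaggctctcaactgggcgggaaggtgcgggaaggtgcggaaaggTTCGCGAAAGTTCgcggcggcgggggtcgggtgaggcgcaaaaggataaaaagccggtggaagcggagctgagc
HSP90AA1, chr14:102087045-102087194, minus strand: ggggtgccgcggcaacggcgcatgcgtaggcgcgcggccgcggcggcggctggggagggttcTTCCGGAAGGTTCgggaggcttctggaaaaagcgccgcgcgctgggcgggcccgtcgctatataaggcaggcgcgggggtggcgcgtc
HSPA8, chr11:123062137-123062286, minus strand: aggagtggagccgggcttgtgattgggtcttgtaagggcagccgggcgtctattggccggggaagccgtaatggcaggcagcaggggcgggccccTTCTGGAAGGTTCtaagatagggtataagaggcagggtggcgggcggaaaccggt
SERPINH1, chr11:75562103-75562252, plus strand: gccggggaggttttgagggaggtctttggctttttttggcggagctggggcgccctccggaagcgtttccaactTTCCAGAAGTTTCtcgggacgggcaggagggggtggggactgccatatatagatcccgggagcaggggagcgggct
CHORDC1, chr11:90223050-90223199, minus strand: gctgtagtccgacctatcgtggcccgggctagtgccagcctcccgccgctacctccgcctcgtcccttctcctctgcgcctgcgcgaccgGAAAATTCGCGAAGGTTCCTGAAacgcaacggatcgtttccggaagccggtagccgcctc
HSP90AB1, chr6:44247763-44247942, plus strand: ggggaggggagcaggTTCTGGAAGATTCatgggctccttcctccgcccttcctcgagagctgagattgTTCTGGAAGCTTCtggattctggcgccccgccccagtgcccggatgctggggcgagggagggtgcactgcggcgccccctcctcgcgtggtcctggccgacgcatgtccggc

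The promoters of DNAJB1 and HSPA1B had no full element of these letters in the window. Both hold its inner pair, GAANNTTC, which reads the same on both strands and is also contained in every full element. In the lines for these genes the capitals mark that pair, at 77 and 47 bases before the start of DNAJB1 and 105 bases before that of HSPA1B. The pair is far commoner than the full element, being found in 8.21% of RefSeq promoters and 6.26% of promoters of tested genes.
DNAJB1, chr19:14518398-14518547, minus strand: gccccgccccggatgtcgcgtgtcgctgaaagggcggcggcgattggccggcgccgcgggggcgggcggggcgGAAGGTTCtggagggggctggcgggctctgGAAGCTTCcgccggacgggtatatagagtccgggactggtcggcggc
HSPA1B, chr6:31827588-31827737, plus strand: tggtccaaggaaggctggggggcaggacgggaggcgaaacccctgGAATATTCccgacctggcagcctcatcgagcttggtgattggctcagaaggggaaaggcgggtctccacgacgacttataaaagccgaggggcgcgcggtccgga

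SERPINH1 was among the largest rises, with 310.2, 285 and 292 CPM with CFZ and 26.1, 24.9 and 23.1 CPM with DMSO (log2 fold change 3.58 ± 0.089, adjusted p = 2.29e-18), and the CFZ libraries were far above the controls. Over windows of 250 bases before to 50 bases after the start, the heat shock element was found in 166 of 27305 RefSeq promoters (0.608%) and in 40 of 8513 promoters of tested genes (0.47%). It was found in 11 of 128 promoters of genes that rose at least 2-fold (8.59%) and in 0 of 107 of genes that fell at least 2-fold. Among the heat shock genes listed 7 of 36 promoters held it (19.4%), and among proteasome genes 0 of 42. A match is a description of letters and no evidence of binding, and the windows leave out elements farther away.

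Chaperones of other compartments rose less evenly. In mitochondria HSPD1 (HSP60), which forms a folding chamber with HSPE1, had 6525, 6391 and 6396 CPM with CFZ and 1153, 1181 and 1192 CPM with DMSO (log2 fold change 2.45 ± 0.045, adjusted p = 6.44e-21). HSPE1 had 932, 871 and 894 CPM with CFZ and 220.4, 256 and 235 CPM with DMSO (log2 fold change 1.92 ± 0.065, adjusted p = 7.13e-16), and in neither gene did the groups overlap. Of 9 mitochondrial chaperones and proteases 4 rose (44.4%, against 14.1% of all genes) and 5 were not called. The other rises were those of HSPA9 (log2 fold change 0.69) and LONP1 (0.45), and with total count scaling 4 rose and 3 fell. The chaperonin CCT folds actin and tubulin. Of 14 subunits of CCT and its helper prefoldin 10 rose (71.4%), with a median of 0.25. The largest change was that of TCP1 (log2 fold change 1.04 ± 0.059, adjusted p = 8.69e-12). By total count scaling 5 of them rose and 1 fell.

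Genes of the drug's own target, the proteasome, rose together by small steps. Of 47 tested genes 32 rose (68.1%, against 14.1% of all genes), 2 fell and 13 were not called, with a median log2 fold change of 0.48. With total count scaling 25 rose and 9 fell, with a median of 0.27. In the 20S core 12 of 13 genes rose (median 0.49). PSMB5, a subunit that CFZ binds, had 106, 107 and 105 CPM with CFZ and 70.9, 82.6 and 72.7 CPM with DMSO (log2 fold change 0.49 ± 0.085, adjusted p = 0.00014). PSMB7, the trypsin-like subunit, had 221, 205 and 235 CPM with CFZ and 136, 142 and 128 CPM with DMSO (log2 fold change 0.70 ± 0.075, adjusted p = 3.23e-07). All treated libraries were above all controls for both. PSMB1 was the core gene that did not pass the test (log2 fold change 0.13 ± 0.083, adjusted p = 0.26).

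All 6 ATPases of the 19S particle, which unfold the substrate, rose (median 0.64). PSMC4 had 279, 289 and 313 CPM with CFZ and 137, 131 and 124 CPM with DMSO (log2 fold change 1.17 ± 0.072, adjusted p = 4.14e-11), with the CFZ libraries at about the same level and clear of the controls. Of the 12 other 19S subunits, which bind ubiquitin and hold the lid together, 11 rose (median 0.71). The largest change among them was that of the lid subunit PSMD12, with 215, 194 and 210.4 CPM with CFZ and 88.5, 107 and 102 CPM with DMSO (log2 fold change 1.06 ± 0.082, adjusted p = 1.78e-09). PSMD7 just missed the threshold (log2 fold change 0.20 ± 0.074, adjusted p = 0.0502). The called genes of the core and the 19S particle had log2 fold changes between 0.24 (PSMA7) and 1.17 (PSMC4).

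Genes of the immunoproteasome, whose proteases replace those of the core in immune cells, stayed close to their control levels or below. The activator genes PSME1 and PSME2 are counted in its list. The median over the 5 listed genes was −0.08 (log2), and PSMB9, one of the proteases, had 72.4, 66.0 and 86.5 CPM with CFZ and 96.7, 93.8 and 92.7 CPM with DMSO (log2 fold change −0.33 ± 0.095, adjusted p = 0.0131). That fall was called by edgeR and not by DESeq2 (adjusted p = 0.0618). PSMB8, another of the proteases, had 145, 125 and 160.3 CPM with CFZ and 157, 154 and 150.2 CPM with DMSO (log2 fold change −0.10 ± 0.084, adjusted p = 0.408), and the groups overlapped. Of 11 activators and assembly factors 3 rose, namely PSMD10, the core maturation factor POMP and the activator PSME4, and PSMG3 fell (log2 fold change −0.29, adjusted p = 0.0466). DESeq2 called neither PSMD10 (adjusted p = 0.0854), PSME4 (0.0636) nor PSMG3 (0.261), and the call of PSMG3 was lost without any of the 6 libraries (0.0528 to 0.134). POMP had 162, 163 and 171 CPM with CFZ and 123, 140.1 and 129 CPM with DMSO (log2 fold change 0.34 ± 0.075, adjusted p = 0.0016). Under scaling by total counts, the genes called higher went from 12 to 8 in the 20S core and from 3 to 0 among activators and assembly factors. The lost calls included those of POMP (log2 fold change 0.13, adjusted p = 0.158), PSMA3 (0.15, adjusted p = 0.12), PSMA7 (0.035, adjusted p = 0.707), PSMD10 (0.16, adjusted p = 0.226) and PSME4 (0.021, adjusted p = 0.857). PSMB8 was then called lower (−0.31, adjusted p = 0.00513).

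Of the factor that drives proteasome expression and its partners, 3 of 8 genes rose (37.5%, against 14.1% of all genes) and 5 were not called. NFE2L1 had 403, 383 and 396 CPM with CFZ and 316, 316 and 304 CPM with DMSO (log2 fold change 0.34 ± 0.062, adjusted p = 0.000282), with no overlap, and this call was lost with total count scaling (log2 fold change 0.13, adjusted p = 0.0771). DDI2, the protease that cuts and frees NFE2L1, had 36.4, 40.9 and 37.8 CPM with CFZ and 34.6, 42.6 and 44 CPM with DMSO (log2 fold change −0.07 ± 0.120, adjusted p = 0.714), and NGLY1, which removes its sugars, changed by −0.08 ± 0.077 (adjusted p = 0.507). BACH1, a repressor at the same sites, rose (log2 fold change 1.26 ± 0.105, adjusted p = 5.82e-09), as did the partner MAFG (log2 fold change 0.84 ± 0.091, adjusted p = 3.45e-07).

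The antioxidant response element, searched as TGACNNNGC and GCNNNGTCA, is a loose motif and was found in 16.1% of all RefSeq promoters and in 19.9% of the promoters of tested genes. It was found in 16 of 42 proteasome promoters (38.1%), in 6 of 18 NRF2 target promoters (33.3%) and in 43 of 128 promoters of genes that rose at least 2-fold (33.6%). In genes that fell at least 2-fold the share was 16.8%, and among ribosomal protein genes 12.1%. Within the proteasome it was held by 2 of 10 promoters of the 20S core (20%), 2 of 6 of the 19S ATPases (33.3%), 4 of 11 of the other 19S subunits (36.4%), 5 of 10 of the activators and assembly factors (50%) and 3 of 5 of the immunoproteasome (60%). Examples are printed for PSMD12, with the motif 165 bases before the start, and for GCLM, with the motif 34 bases before it on the other strand, and capitals mark the motif.
PSMD12, chr17:67366578-67366757, minus strand: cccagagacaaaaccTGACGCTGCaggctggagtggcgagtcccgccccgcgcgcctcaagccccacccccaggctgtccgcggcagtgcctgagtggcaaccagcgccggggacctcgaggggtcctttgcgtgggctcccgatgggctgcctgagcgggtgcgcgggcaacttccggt
GCLM, chr1:93909431-93909580, minus strand: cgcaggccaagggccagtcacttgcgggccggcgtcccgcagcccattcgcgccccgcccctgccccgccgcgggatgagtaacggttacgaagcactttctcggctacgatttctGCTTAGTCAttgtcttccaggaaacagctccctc

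Genes of the ubiquitin system rose with the chaperones. UBB, which encodes ubiquitin, had 1527, 1418 and 1564 CPM with CFZ and 638, 650.3 and 573 CPM with DMSO (log2 fold change 1.28 ± 0.060, adjusted p = 3.16e-13). Both groups of libraries were tight and apart. RPS27A, in which ubiquitin is fused to a ribosomal protein, changed by 0.24 ± 0.050 on the log2 scale, a call lost with total count scaling (0.035, adjusted p = 0.515) and in the fit of all AMO1 groups (adjusted p = 0.322). VCP is the ATPase that pulls tagged proteins out of membranes and complexes. It had 570.3, 558 and 594 CPM with CFZ and 331, 325 and 310.2 CPM with DMSO (log2 fold change 0.83 ± 0.061, adjusted p = 7.3e-10), with no overlap. Its cofactor NPLOC4 rose (log2 fold change 0.97 ± 0.071, adjusted p = 6.97e-10). ZFAND2A (AIRAP), a stress-inducible protein bound to the proteasome, had 308, 302 and 334 CPM with CFZ and 16.1, 15.5 and 14.2 CPM with DMSO (log2 fold change 4.36 ± 0.097, adjusted p = 2.59e-19), with each treated library far above the controls. USP14, a deubiquitinase on the 19S particle, rose (log2 fold change 0.89 ± 0.076, adjusted p = 8.65e-09), whereas its neighbour UCHL5 fell (log2 fold change −0.31 ± 0.095, adjusted p = 0.0197), as did UBXN2A (log2 fold change −0.41 ± 0.137, adjusted p = 0.0311), although DESeq2 called neither fall (adjusted p = 0.0961 and 0.202). Of 31 genes of this group 22 rose (71%, against 14.1% of all genes) and these 2 fell (6.45%, against 12.8%), with a median of 0.54. With total count scaling 16 rose and 4 fell.

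Autophagy is the other route of disposal. SQSTM1 (p62), the receptor that brings tagged aggregates to autophagosomes, had 3002, 2927 and 3212 CPM with CFZ and 698, 738 and 670.4 CPM with DMSO (log2 fold change 2.12 ± 0.055, adjusted p = 4.42e-18). GABARAPL1, a protein attached to the autophagosome membrane, had 56.3, 56.1 and 49.9 CPM with CFZ and 11.1, 15.8 and 17.7 CPM with DMSO (log2 fold change 1.86 ± 0.146, adjusted p = 2.5e-09). In both cases the CFZ libraries stood well above the others. MAP1LC3B, of the same family, rose by 1.71 ± 0.079. Of 20 autophagy genes 8 rose (40%, against 14.1% of all genes) and 12 were not called. Among the latter were ATG7 (log2 fold change −0.03 ± 0.152, adjusted p = 0.92), a core enzyme of the pathway, and TFEB (log2 fold change −0.34 ± 0.142, adjusted p = 0.0831), a master regulator of lysosome genes. By total count scaling 6 rose (30%) and 5 fell (25%), beside 648 higher and 3459 lower of all 10470 genes.

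Genes of antioxidant defence under NRF2 rose in 19 of 23 cases (82.6%, against 14.1% of all genes) and were not called in 4. One of the rises, OSGIN1, a growth inhibitor, passed the filter only through its CFZ libraries and so had to differ, and without it 18 of 22 rose (81.8%), with a median of 0.53. HMOX1, which breaks down haem, had 305, 325 and 347 CPM with CFZ and 24.6, 35.7 and 30.4 CPM with DMSO (log2 fold change 3.43 ± 0.101, adjusted p = 4.48e-17). FTL and FTH1, the chains of the iron store ferritin, rose by 1.63 ± 0.051 and 1.46 ± 0.059. GCLM, the modifier subunit of the first enzyme of glutathione synthesis, had 51.1, 58.3 and 55.1 CPM with CFZ and 15.8, 15.8 and 19 CPM with DMSO (log2 fold change 1.7 ± 0.129, adjusted p = 1.35e-09). HMOX1 and GCLM did not overlap between groups. SRXN1, which repairs peroxiredoxins, had 255, 247 and 260.0 CPM with CFZ and 52.8, 51.3 and 55.7 CPM with DMSO (log2 fold change 2.26 ± 0.078, adjusted p = 9.74e-16), but 90.6% of its 31-base words are shared with other transcripts, so its reads may not all be its own. Leaving out OSGIN1, all 11 genes of glutathione and thioredoxin that were tested rose, down to the export pump ABCC1 (log2 fold change 0.26 ± 0.089, adjusted p = 0.0314), which was called neither by DESeq2 (adjusted p = 0.141) nor with total count scaling (log2 fold change 0.057, adjusted p = 0.641). Of the genes of NADPH supply TALDO1 rose (log2 fold change 0.73 ± 0.074, adjusted p = 1.29e-07). NFE2L2, the gene of NRF2 itself, just missed the threshold (log2 fold change 0.21 ± 0.080, adjusted p = 0.0549). With total count scaling 15 of the 23 rose and 1 fell. Metallothioneins, which bind metals, stayed near the floor of detection: 8 of the 10 genes of that list were not tested, and MT2A had 1 to 2 counts with CFZ and 2 to 5 with DMSO.

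The integrated stress response rose broadly. Of 51 tested genes 43 rose (84.3%, against 14.1% of all genes), 15 of them at least 2-fold, and 8 were not called, with a median of 0.60. With total count scaling 36 rose and 3 fell. Lists share members, SLC7A11 being also among the NRF2 targets and SESN2 and CDKN1A among the genes of growth arrest. Such rises are counted in both lists. Among its factors ATF3, a repressor made under ATF4, had 230.1, 214 and 225 CPM with CFZ and 14.7, 13.4 and 11.1 CPM with DMSO (log2 fold change 4.09 ± 0.106, adjusted p = 4.42e-18). DDIT3 (CHOP), which links the response to cell death, had 224, 211 and 236 CPM with CFZ and 71.2, 69.6 and 66.4 CPM with DMSO (log2 fold change 1.69 ± 0.079, adjusted p = 2.61e-13). Every treated library was several times above the controls in both genes. PPP1R15A (GADD34) returns eIF2α to its resting state and had 525, 519 and 514 CPM with CFZ and 123, 132 and 105 CPM with DMSO (log2 fold change 2.11 ± 0.077, adjusted p = 2.28e-15). TRIB3, a pseudokinase that dampens ATF4, had 272, 269 and 304 CPM with CFZ and 101, 89.2 and 103 CPM with DMSO (log2 fold change 1.53 ± 0.079, adjusted p = 1.64e-12). ATF4, which is known to be governed mainly at translation, had 676, 688 and 715 CPM with CFZ and 449.9, 452 and 423 CPM with DMSO (log2 fold change 0.65 ± 0.058, adjusted p = 2.14e-08). The groups were separate for each of these 3 genes. ATF5, a relative of ATF4, was the factor that did not pass the test (log2 fold change −0.27 ± 0.111, adjusted p = 0.0833).

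All 8 amino acid transporters of the response rose. SLC7A11, which brings in cystine, changed most (log2 fold change 2.61 ± 0.152, adjusted p = 1.49e-11), and SLC38A2, which brings in small neutral amino acids, changed least (log2 fold change 0.43 ± 0.076, adjusted p = 0.000174). Of 12 enzymes of amino acid and one-carbon synthesis 10 rose, from CTH, which makes cysteine (log2 fold change 1.58 ± 0.168, adjusted p = 3.18e-07), down to ALDH1L2 (log2 fold change 0.26 ± 0.084, adjusted p = 0.0219), but DESeq2 called only 6 of the 12 (50%). ALDH1L2 was called neither by DESeq2 (adjusted p = 0.143) nor with total count scaling (log2 fold change 0.056, adjusted p = 0.622), and ALDH18A1, an enzyme of proline synthesis, did not pass the test (log2 fold change −0.12 ± 0.078, adjusted p = 0.283). Of 13 genes for cytosolic tRNA synthetases and the tRNA exporter XPOT 11 rose. WARS1, for tryptophan, had 1975, 1895 and 2023 CPM with CFZ and 746, 709 and 698 CPM with DMSO (log2 fold change 1.45 ± 0.053, adjusted p = 2.38e-15), and LARS1, for leucine, had 159, 160.5 and 155 CPM with CFZ and 164, 159 and 179 CPM with DMSO (log2 fold change −0.08 ± 0.073, adjusted p = 0.45). WARS1 was thus separate between groups, and LARS1 was not. Of the 10 stress effectors 7 rose, among them SESN2 (log2 fold change 1.46 ± 0.077, adjusted p = 2.5e-12), an inhibitor of mTORC1, and CHAC1, which breaks down glutathione (log2 fold change 1.17 ± 0.175, adjusted p = 2.79e-05).

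Of the 4 kinases of eIF2α, 1 was called. EIF2AK3 (PERK), the kinase that senses stress of the endoplasmic reticulum (ER), had 316, 318 and 305 CPM with CFZ and 152, 143 and 162 CPM with DMSO (log2 fold change 1.04 ± 0.069, adjusted p = 1.52e-10), with the groups apart. EIF2AK4 (GCN2), the kinase that senses uncharged tRNA, had 35.3, 35.1 and 33.7 CPM with CFZ and 43.7, 42.9 and 40.5 CPM with DMSO (log2 fold change −0.29 ± 0.111, adjusted p = 0.0604). It did not pass the test, although all CFZ libraries were below all controls, and it was called lower with offsets for GC content and length (log2 fold change −0.32, adjusted p = 0.0279) and with total count scaling (−0.50, adjusted p = 0.00165).

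Stress genes of the ER rose in 21 of 35 cases (60%, against 14.1% of all genes) and fell in 2 (5.71%, against 12.8%), with a median of 0.26. With total count scaling 13 rose and 4 fell. HSPA5 (BiP), the HSP70 of the ER, had 3290.4, 3315 and 3365 CPM with CFZ and 1091, 1139 and 1113 CPM with DMSO (log2 fold change 1.58 ± 0.047, adjusted p = 6.36e-17), a mean 2.98 times higher in libraries that did not overlap. HYOU1, the HSP110 of the ER, rose by 0.90 ± 0.061. Of 17 chaperones and folding enzymes 15 rose, down to PDIA6 (log2 fold change 0.15 ± 0.050, adjusted p = 0.0348), whose sign turned with total count scaling (−0.06, adjusted p = 0.236), and ERO1A, an oxidase that makes disulfide bonds, fell (log2 fold change −0.34 ± 0.084, adjusted p = 0.00374). Of 12 genes of ER-associated degradation 4 rose. HERPUD1, which organises that machinery, had 646, 672 and 630.4 CPM with CFZ and 411, 435 and 415 CPM with DMSO (log2 fold change 0.63 ± 0.059, adjusted p = 4.02e-08), and the ubiquitin ligase SYVN1 had 95.5, 103 and 101 CPM with CFZ and 110.2, 104 and 105 CPM with DMSO (log2 fold change −0.09 ± 0.079, adjusted p = 0.415). HERPUD1 was higher in every treated library, and SYVN1 did not pass the test. XBP1, the factor of the IRE1 branch, had 364, 341 and 385 CPM with CFZ and 277, 291 and 292 CPM with DMSO (log2 fold change 0.34 ± 0.066, adjusted p = 0.000439), a call lost with total count scaling (log2 fold change 0.14, adjusted p = 0.0831). The sensor ERN1 (IRE1) rose (log2 fold change 0.65 ± 0.071, adjusted p = 4.99e-07), and CREB3L2, a membrane-bound factor, fell (log2 fold change −0.37 ± 0.094, adjusted p = 0.00502). These counts are of whole genes, so the splicing of XBP1 was not measured.

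Early response genes split. JUN had 264, 263 and 278 CPM with CFZ and 26.7, 21.4 and 24.7 CPM with DMSO (log2 fold change 3.46 ± 0.093, adjusted p = 7.73e-18), and its treated libraries were far above the controls. JUND, FOSL2 and the phosphatases DUSP1 and DUSP8, which switch off MAP kinases, also rose, by 1.37, 1.20, 2.19 and 1.99 on the log2 scale. JUNB fell (log2 fold change −0.42 ± 0.084, adjusted p = 0.000661), as did KLF2, KLF10 and DUSP6 (−0.84, −0.68 and −1.17). FOS, the classic partner of JUN, had 9.79, 8.70 and 9.22 CPM with CFZ and 5.28, 6.52 and 7.27 CPM with DMSO (log2 fold change 0.54 ± 0.239, adjusted p = 0.102) and was not called. Of 25 genes tested 9 rose (36%) and 6 fell (24%), beside 14.1% and 12.8% of all genes.

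Targets of p53 moved both ways. Of 23 genes of growth arrest and DNA damage 6 rose (26.1%) and 9 fell (39.1%), beside 14.1% and 12.8% of all genes. The median was −0.09. Scaled by total counts 4 rose (17.4%) and 12 fell (52.2%), with a median of −0.30, beside 648 higher and 3459 lower of all 10470 genes. CDKN1A (p21), which stops the cell cycle, had 676, 612 and 670.2 CPM with CFZ and 391, 385 and 348 CPM with DMSO (log2 fold change 0.80 ± 0.064, adjusted p = 3.75e-09). GADD45A rose (log2 fold change 1.26 ± 0.117, adjusted p = 4e-08), and GADD45B had 50.4, 35.4 and 48.4 CPM with CFZ and 33.7, 28.9 and 29.7 CPM with DMSO (log2 fold change 0.54 ± 0.135, adjusted p = 0.00484), a call lost with total count scaling (log2 fold change 0.33, adjusted p = 0.0607). MDM2, the inhibitor of p53, had 507, 527 and 465 CPM with CFZ and 494, 458 and 526 CPM with DMSO (log2 fold change 0.02 ± 0.066, adjusted p = 0.854), with overlapping groups, and DDB2, a DNA repair gene under p53, fell (log2 fold change −1.04 ± 0.118, adjusted p = 7.56e-07).

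In the BCL2 family PMAIP1 (NOXA), which blocks the survival protein MCL1, had 59.4, 64.8 and 62.3 CPM with CFZ and 22.0, 25.2 and 22.8 CPM with DMSO (log2 fold change 1.42 ± 0.113, adjusted p = 3.22e-09). MCL1 had 1577, 1584 and 1486 CPM with CFZ and 1148, 1195 and 1353 CPM with DMSO (log2 fold change 0.33 ± 0.059, adjusted p = 0.000217), a call lost with total count scaling (log2 fold change 0.12, adjusted p = 0.0965). Neither gene had overlapping groups. BAX, which opens the mitochondrial membrane, fell (log2 fold change −0.52 ± 0.098, adjusted p = 0.000388), and BCL2 fell slightly (log2 fold change −0.28 ± 0.078, adjusted p = 0.0102). BMF, the BH3-only gene with the lowest fold change, did not pass the test (log2 fold change −0.39 ± 0.183, adjusted p = 0.124). The list tested also holds death receptors and caspases, which are 14 of its 28 genes. Of these 28 genes 7 rose (25%) and 3 fell (10.7%), beside 14.1% and 12.8% of all genes, and DESeq2 called 4 higher and 3 lower. Scaled by total counts, 2 rose (7.14%) and 8 fell (28.6%), beside 648 higher and 3459 lower of all 10470 genes. The median of the list then moved from 0.08 to −0.13, and that of all genes to −0.21. Of 13 genes of the NF-kB pathway, which proteasome inhibitors are known to act on through the inhibitor IκB, 2 rose (15.4%) and 4 fell (30.8%). Scaled by total counts, 1 of these genes rose (7.69%) and 6 fell (46.2%), to be read beside the same counts of all genes. TNFAIP3 (A20), a feedback inhibitor, had 218, 209 and 189 CPM with CFZ and 315, 337 and 320.0 CPM with DMSO (log2 fold change −0.66 ± 0.070, adjusted p = 2.68e-07), and NFKBIA (IκBα) had 37.8, 48 and 49.0 CPM with CFZ and 41.3, 43.5 and 44.9 CPM with DMSO (log2 fold change 0.06 ± 0.115, adjusted p = 0.733). TNFAIP3 was lower in every treated library, whereas NFKBIA overlapped.

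SDC1, which encodes the plasma cell surface protein CD138 (chromosome 2, 20200797 to 20225433, minus strand), showed the fall with the largest loss of reads. It had 743, 743 and 743 CPM with CFZ and 3162, 3106 and 2758 CPM with DMSO (log2 fold change −2.02 ± 0.056, adjusted p = 1.48e-17), the largest loss of CPM of any gene tested, and the treated libraries were alike and far below the controls. Genes of plasma cells and myeloma, SDC1 included, moved both ways, with 7 of 29 higher (24.1%), 12 lower (41.4%) and a median of −0.18. Of all genes 14.1% were higher and 12.8% lower. With total count scaling 2 of the list were higher (6.9%) and 18 lower (62.1%), beside 648 and 3459 of all 10470 genes. SLAMF7, the surface protein targeted by elotuzumab, had 289.5, 269 and 278 CPM with CFZ and 141, 142 and 139 CPM with DMSO (log2 fold change 0.98 ± 0.068, adjusted p = 2.66e-10), and all treated libraries were above the controls. JCHAIN, which joins antibody units, fell (log2 fold change −0.32 ± 0.047, adjusted p = 2.02e-05). Among transcription factors IRF4, on which myeloma cells depend, had 309, 335 and 311 CPM with CFZ and 264, 278 and 305 CPM with DMSO (log2 fold change 0.17 ± 0.069, adjusted p = 0.0724) and was not called, although it was without DMSO replicate 3 (log2 fold change 0.23, adjusted p = 0.016). MYC had 333, 325 and 337 CPM with CFZ and 368, 376 and 385 CPM with DMSO (log2 fold change −0.18 ± 0.061, adjusted p = 0.032), with all treated libraries below the controls, but this call was lost without any of the 6 libraries (adjusted p from 0.0595 to 0.103). POU2F2, a factor of the B lineage, had the largest fall of the factors (log2 fold change −0.99 ± 0.146, adjusted p = 2.61e-05). PRDM1 (BLIMP1), the master factor of plasma cells, had 99.7, 114 and 99.7 CPM with CFZ and 106, 103 and 109 CPM with DMSO (log2 fold change −0.02 ± 0.082, adjusted p = 0.865), with overlapping groups. In bulk samples fewer cells of a kind and less RNA per cell cannot be told apart, here and for the genes of cell division.

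Genes of cell division were lower. Of 30 genes of mitosis (G2/M) 26 fell (86.7%, against 12.8% of all genes) and 4 were not called, with a median of −0.56. TOP2A, which untangles DNA before mitosis, had 124, 111 and 113 CPM with CFZ and 253, 282 and 306 CPM with DMSO (log2 fold change −1.28 ± 0.080, adjusted p = 5.39e-11), and the treated libraries were all below the controls. CCNB1, the mitotic cyclin, had 57.3, 48.7 and 57.7 CPM with CFZ and 76.8, 82.6 and 73.4 CPM with DMSO (log2 fold change −0.51 ± 0.096, adjusted p = 0.000377), and PLK1, a mitotic kinase, had 23.4, 21.6 and 16.4 CPM with CFZ and 37.8, 41.9 and 29.7 CPM with DMSO (log2 fold change −0.85 ± 0.159, adjusted p = 0.000356). For both the groups were apart. CDC25C, a phosphatase that starts mitosis, had 10.8, 9.99 and 11 CPM with CFZ and 11.1, 8.70 and 9.49 CPM with DMSO (log2 fold change 0.11 ± 0.207, adjusted p = 0.731). Of 30 genes of G1/S and replication 16 fell (53.3%, against 12.8% of all genes), with a median of −0.26. The gene of the histone RNA-binding protein SLBP was the 1 that rose (3.33%, against 14.1% of all genes). Its adjusted p was 0.0222 with edgeR, but 0.16 with DESeq2 and 0.462 with total count scaling. PCNA, the sliding clamp of replication, had 124, 138 and 145 CPM with CFZ and 255, 265 and 262 CPM with DMSO (log2 fold change −0.94 ± 0.072, adjusted p = 1.78e-09). RRM2, which makes deoxynucleotides, had 276, 249 and 259 CPM with CFZ and 262, 287 and 284 CPM with DMSO (log2 fold change −0.09 ± 0.068, adjusted p = 0.365), so PCNA was separate and RRM2 was not. CCND1 passed the filter only through its DMSO libraries and so had to differ, and without it 15 of 29 G1/S genes fell (51.7%), with a median of −0.24. Under scaling by total counts, 28 G2/M genes (93.3%) and 24 G1/S genes (80%) were lower, beside 3459 of all 10470 genes.

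Ribosomal protein genes shifted together by a small step, with 72 of 73 higher (98.6%, against 14.1% of all genes) and a median of 0.29. By total count scaling the same genes gave 21 higher, 1 lower and a median of 0.08, so the size of this shift depends on the scaling. RPL4 had 4362, 4181 and 4496 CPM with CFZ and 3461, 3628 and 3419 CPM with DMSO (log2 fold change 0.31 ± 0.046, adjusted p = 2.24e-05), and RPS26, the gene not called, had 513, 488 and 554 CPM with CFZ and 515, 537 and 469.6 CPM with DMSO (log2 fold change 0.03 ± 0.066, adjusted p = 0.763). RPL4 was separate between groups and RPS26 overlapped. Of 13 mitochondrially encoded genes 1, MT-CYB, rose (log2 fold change 0.14 ± 0.047, adjusted p = 0.0304) and 12 were not called, with a median of 0.09, and DESeq2 called 3 higher. Under scaling by total counts 7 fell, MT-CYB had −0.07 (adjusted p = 0.178) and the median was −0.11.

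Beyond SDC1, the largest falls, counting genes whose mean reached 5 CPM and whose groups were apart, were of genes with different roles. HIC1, a repressor, had 1.05, 2.26 and 1.44 CPM with CFZ and 7.62, 11.2 and 7.91 CPM with DMSO (log2 fold change −2.45 ± 0.352, adjusted p = 1.77e-05). It passed the filter only through its DMSO libraries and so had to be lower with CFZ. ID3, which holds back factors such as TCF3, changed by −2.02 ± 0.211 (adjusted p = 2.41e-07). In both genes the treated libraries were all lower. PTPN6 (SHP-1), a phosphatase that restrains signalling of immune receptors, had 38.5, 34.8 and 39.2 CPM with CFZ and 126, 137 and 113 CPM with DMSO (log2 fold change −1.74 ± 0.099, adjusted p = 9.19e-12). IL16, a cytokine precursor, had 60.8, 55.4 and 55.1 CPM with CFZ and 176, 177 and 162 CPM with DMSO (log2 fold change −1.59 ± 0.084, adjusted p = 2.5e-12). ADORA2A, a receptor for adenosine, had 13.3, 14.5 and 9.80 CPM with CFZ and 39.0, 42.6 and 37.3 CPM with DMSO (log2 fold change −1.67 ± 0.157, adjusted p = 4.27e-08). None of these overlapped. Among the rest of the 15 largest falls were FUT11, DIXDC1, GJD3-AS1, LILRB1, TRAF3IP3, ARHGEF3, JAKMIP1 and ZNF362, with log2 fold changes from −2.15 to −1.54. LILRB1 and JAKMIP1 share 29% and 21.9% of their 31-base words with other transcripts. The 15 largest rises included HSPA6, HSPA1B, DNAJB1, BAG3, ZFAND2A, ATF3, HSP90AA1, HSPH1, SERPINH1, JUN, HMOX1, DNAJB4, the extracellular chaperone CLU and ENSG00000205021, an identifier without a symbol. CLU had 90.9, 88.3 and 90.5 CPM with CFZ and 14.7, 10.6 and 9.17 CPM with DMSO (log2 fold change 2.96 ± 0.132, adjusted p = 1.18e-13), with no overlap.

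A direct contrast of the CFZ libraries with the NCP26 libraries of 6 h shows where the proteasome inhibitor differed from a drug that starves cells of a charged tRNA. It uses no DMSO library. The doses, 10 nM and 1 µM, differ, so the sizes are those at these doses. It called 4444 of 10591 genes (42%), with 2307 higher with CFZ (21.8%) and 2137 lower (20.2%). NCP26 replicate 1 stood apart with 15581 genes detected against 13577 and 13636 in replicates 2 and 3, so counts without it are added. Of 37 heat shock genes 33 were higher with CFZ and 1, a heat shock factor gene, was lower. The same counts were found without that library, but the lower gene was then HSPA14 (−0.31). Of 47 proteasome genes 36 were higher and 1 was lower, again unchanged in number. Of 23 NRF2 targets 21 were higher, and 20 without that library. These lists still count CRYAB and OSGIN1, which had passed the filter against DMSO only through CFZ libraries. Scaling by total counts moved the median of all genes in this contrast to −0.38 and gave 693 higher and 5078 lower genes, so small differences depend on the scaling.

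The largest differences were HSPA6 (log2 8.70), HSPA1B (7.14), DNAJB1 (6.17), BAG3 (5.68) and HMOX1 (5.13). Reads of HSPA1B and HSPA1A cannot be divided with certainty, and without NCP26 replicate 1 their differences were 7.12 and 3.04. On the scale of the 5 groups plotted together, HMOX1 had 332, 353 and 378 CPM with CFZ and 8.04, 11.9 and 10.3 CPM with NCP26 (5.13 ± 0.129, adjusted p = 2.07e-11). CDKN1A had 735, 665 and 730.0 CPM with CFZ and 66.2, 68.6 and 67.7 CPM with NCP26 (3.41 ± 0.098, adjusted p = 7.95e-11). In both, the CFZ libraries were all above the NCP26 libraries, and the gap was larger than the rise over DMSO given above. For the ISR 17 of 51 genes were higher with CFZ (33.3%, against 21.8% of all genes) and 11 lower (21.6%, against 20.2%), with a median of 0.07, or 15 higher and 14 lower without NCP26 replicate 1. TRIB3 had 296, 293 and 331 CPM with CFZ and 309, 299.9 and 299 CPM with NCP26 (0.04 ± 0.088, adjusted p = 0.738). DDIT3 had 244, 229 and 257 CPM with CFZ and 300.2, 263 and 267 CPM with NCP26 (−0.16 ± 0.093, adjusted p = 0.179). TRIB3 overlapped, and DDIT3 was lower in all CFZ libraries but was not called. A p that misses the threshold does not show that the drugs act alike. ATF3 was higher with CFZ (1.17 ± 0.10, adjusted p = 3.11e-06), and STC2, a secreted ATF4 target, was lower (−1.99 ± 0.152, adjusted p = 1.4e-06). All 10 tested histone genes were lower with CFZ than with NCP26 (median −2.20), and all 11 tubulin and actin genes were higher (median 1.41). Against DMSO the medians of both groups stayed close to 0, but tubulin and actin genes moved both ways. Of 8 histone genes tested there 1 rose and 1 fell (median −0.003). Of 11 tubulin and actin genes 5 rose (45.5%) and 3 fell (27.3%), with a median of 0.11. Of all genes 14.1% rose and 12.8% fell against DMSO. Only those 8 histone genes had passed the filter against DMSO. The others passed here through their NCP26 libraries and so had to be lower with CFZ. The 5 genes most lower with CFZ were KIR3DX1, ENSG00000196331, HES1, H2AC25 and H2BC11, from −3.96 to −3.20. ENSG00000196331 and H2AC25 did not pass the filter in CFZ and DMSO libraries of both times, taken without CFZ replicate 2 of 24 h. They passed here through their NCP26 libraries and so had to be lower with CFZ.

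The comparison of times asks whether the effect at 6 h was the same at 24 h. Each time has its own DMSO libraries. The difference was called for 2157 of 10988 genes (19.6%), with the effect more positive at 24 h for 885 (8.05%) and less positive or more negative for 1272 (11.6%). CFZ replicate 2 of 24 h stood apart, with 5.13% of its counts on ribosomal protein genes against 9.71% and 10.2% in its replicates, and without it 3387 genes were called. The 6 h pellets were frozen overnight and the 24 h pellets kept on ice, so time and storage cannot be told apart, although each time was measured against controls stored the same way. By their sample numbers, CFZ replicates 2 and 3 of 24 h belong to another set than CFZ replicate 1 and the DMSO libraries of 24 h. The 6 h libraries are in the set of those controls. What a set stands for is not given, and for these CFZ libraries it cannot be told apart from the treatment. With total count scaling 1997 genes had a more positive effect at 24 h and 699 a less positive one.

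On the scale of the 5 groups, DNAJB1 at 24 h had 566, 526 and 568 CPM with CFZ and 77.0, 76.1 and 72.2 CPM with DMSO, with the treated libraries above the controls, and the effect differed from that at 6 h by −2.45 ± 0.128 (log2, adjusted p = 5.28e-08). ATF3 had 72.7, 61.2 and 66.1 CPM with CFZ and 18.2, 19.8 and 17.1 CPM with DMSO, with a difference of −2.23 ± 0.172 (adjusted p = 1.84e-06). CDKN1A had 129, 133 and 143 CPM with CFZ and 337, 405 and 353 CPM with DMSO, with a difference of −2.24 ± 0.139 (adjusted p = 2.53e-07). The treated libraries of 24 h lay above their controls for ATF3 and below them for CDKN1A. Of 37 heat shock genes 20 had a less positive effect at 24 h (against 11.6% of all genes), and of 51 ISR genes 36 had a less positive effect and 3 a more positive one. Without CFZ replicate 2 of 24 h these were 22 heat shock genes less positive and 1 more positive, and 39 and 4 for the ISR. Of 47 proteasome genes 3 had a less positive effect (6.38%) and 1 a more positive one (2.13%), beside 11.6% and 8.05% of all genes. Without that library these were 6 (12.8%) and 11 (23.4%), beside 1956 and 1431 of 11082 genes, so the low number depends on it. PSMC4 had 192, 158 and 211 CPM with CFZ and 83.4, 85.2 and 84.0 CPM with DMSO (difference −0.02 ± 0.151, adjusted p = 0.933). SDC1 had 554, 582 and 560.2 CPM with CFZ and 2376, 2426 and 2622 CPM with DMSO (difference −0.12 ± 0.130, adjusted p = 0.567). At 24 h too, PSMC4 was above and SDC1 below the controls in all libraries, and a difference between the times was not detected for either.

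**Figure D3:**
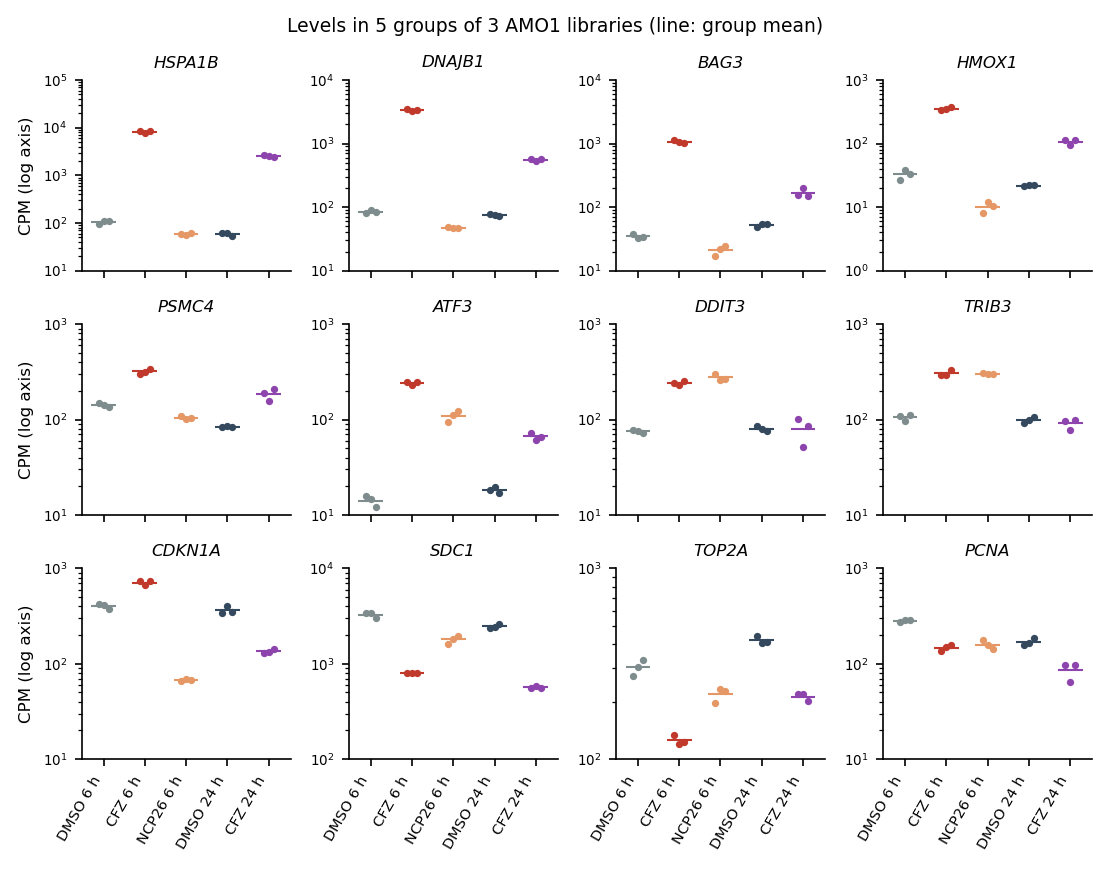
Levels in CPM (log axis) of 12 genes in 5 groups of 3 AMO1 libraries (DMSO, CFZ and NCP26 at 6 h, DMSO and CFZ at 24 h), with points for libraries and a line for the group mean. HSPA1B, DNAJB1, BAG3 and HMOX1 are higher in every CFZ library than in any other library plotted, TRIB3 overlaps between CFZ and NCP26 at 6 h, DDIT3 lies somewhat higher with NCP26, and SDC1 is lower with CFZ than in the other groups at both times.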

How the data were processed

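RNA was measured in 66 libraries, of which 6 are compared here and 9 more (NCP26 at 6 h, CFZ and DMSO at 24 h, 3 each) serve as context. Polyadenylated RNA from pellets lysed in Trizol was made into directional libraries and sequenced from both ends on a NextSeq 500. The authors assigned reads with kallisto, and the deposited table holds whole-number counts for each gene, not normalized. The methods of the study name GRCh38, whereas the submitters' processing notes name hg19, and the sources used here give neither the version of kallisto nor the annotation. Columns were matched to samples by their names, and 0 columns were left without a sample.

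Genes were kept by filterByExpr (minimum count 10, minimum total 15), scaled by TMM and tested with edgeR 4.0.16 (quasi-likelihood, R 4.3.3), with Benjamini-Hochberg adjustment over all genes tested. SEs were taken from the fold change and its F value. The 3 comparisons each had a fit of their own. The study itself used DESeq2, which was run as an alternative (version 1.42.0). The tests were tried on simulated data. Gene names and positions are from GENCODE v44 on GRCh38 (19299 of 20167 identifiers matched), promoters from RefSeq GRCh38.p14, and sharing of reads was judged by 31-base words common to transcripts of other genes. CPM were computed from the deposited counts and the scaled library size. The 6 libraries held 2913987 to 3790298 counts, which limits genes of few counts.

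Named genes were a fixed set of stress and myeloma genes, the 15 largest changes in each direction (adjusted p under 0.05, at least 5 CPM, no overlap), the extremes of each list and, for the other comparisons, the 5 largest in each direction. Some of these genes are not reported here. Further examples were chosen after their values were seen. The 29 lists, written from general knowledge, and the comparison were chosen with earlier results of these data known, so their counts are descriptions. Samples with the same replicate number did not vary together (correlations −0.01, −0.03 and −0.12), so they were not paired. Alternatives were other scaling, no filter, DESeq2, all AMO1 groups in 1 fit, a replicate block, leaving out each library and, added after seeing the data, offsets for GC content and length and a term for the 2 sets of sample numbers.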

Additional observations from a re-analysis of the deposited data

Results flagged for a closer look

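Results are listed here where the CFZ effect at 24 h differed from that at 6 h by the test of the difference itself. The test called 2157 of 10988 genes. The 5 named genes with the most positive difference were RNF222 (4.64), OR1N1 (4.58), COL12A1 (4.46), RAD9B (4.20) and SYN1 (4.19), all on the log2 scale. In each of them the SD of the 24 h CFZ libraries exceeded their mean, and without CFZ replicate 2 of 24 h the differences fell to values between 2.19 and 2.47. The genes with the most negative difference were ENSG00000203836 (−3.75, and −3.25 without that library), FAM107B (−3.32 and −3.27), RAB31 (−3.30 and −3.45), BAG3 (−3.28 and −3.40) and BCAT1 (−3.27 and −3.03). Among the genes named above the difference was −0.88 for HSPA1B, −2.45 for DNAJB1, −2.23 for ATF3, −1.7 for DDIT3, −1.66 for TRIB3, −2.52 for WARS1, −2.24 for CDKN1A and 0.81 for XBP1. Without CFZ replicate 2 of 24 h it was −0.87 for HSPA1B and 0.28 for HSPA1A (adjusted p = 0.467, edgeR), whose reads cannot be divided with certainty. HSPA6 had −1.33 with an adjusted p of 0.0457, or 0.0675 without CFZ replicate 2 of 24 h.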

How the results depend on the processing

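For CFZ against DMSO at 6 h, the 2820 calls (1475 higher, 1345 lower) became 2818 with the size factors of DESeq2, 2970 without a filter, 2363 with all AMO1 groups in 1 fit, 3116 with offsets for GC content and length, and 1728 (987 higher, 741 lower) with the Wald test of DESeq2. Scaling by total counts moved the median of all genes by −0.21 (log2) and gave 648 higher and 3459 lower genes, so that 15.8% rather than 52.3% of the calls were rises. It kept 1993 of the calls. Among genes called both ways, 0 had opposite signs under any of these alternatives. Leaving out 1 library gave 2208 to 2926 calls, with 1176 to 1545 higher and 1032 to 1381 lower. A replicate block gave 2521 calls. Since samples with the same number did not vary together, the numbers were not taken to pair them, and a lost call under the block is not read as a weaker effect. The block left 4414 calls for CFZ against NCP26 and 1928 for the difference between times.

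For CFZ against NCP26 at 6 h, 4444 calls (2307 higher, 2137 lower) became 693 higher and 5078 lower when scaled by total counts, with a median of −0.38 over all genes, and the other alternatives gave 3868 to 4837. Without 1 library there were 3276 to 4952. For the difference between 24 h and 6 h, 2157 calls (885 and 1272) became 1997 and 699 when scaled by total counts (median 0.24) and 3227 in the fit of all AMO1 groups, with 1446 more positive. Leaving out 1 library gave 1507 to 3387 calls, with 570 to 1431 more positive and 937 to 1956 less positive. The highest numbers came without CFZ replicate 2 of 24 h and the lowest without DMSO replicate 2 of 24 h. With a term for the 2 sets of sample numbers, added after the data were seen like the GC and length offsets, there were 1161 calls (421 and 740).

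Of the genes named for CFZ against DMSO at 6 h, 4 turned sign together with a change of call when scaled by total counts. They were MDM2 (−0.19), MT-CYB (−0.067), PDIA6 (−0.063) and RPS26 (−0.18). Genes called under neither scaling turned sign too, and the lowest value of the 20S core moved from 0.13 to −0.075. RNF222 and OR1N1, which have few counts, went from −1.49 and −1.14 without DMSO replicate 3 to 0.12 and 0.40 without DMSO replicate 1. Scaling by total counts ended 16 calls and made 21, and the Wald test of DESeq2 ended 12. Without CFZ replicate 1, 2 or 3 the losses were 11, 9 and 13, and without DMSO replicate 1, 2 or 3 they were 9, 8 and 4. MYC and PSMG3 were lost in each case. ALDH1L2 was lost in all but the last (adjusted p from 0.0518 to 0.0682), and BCL2 without CFZ replicate 3 (0.0972). PSMB9 was lost without CFZ replicate 1 (0.0632) or 2 (0.107). PSMA7 was lost without CFZ replicate 3 (0.121), and TUBB2A in the fit of all AMO1 groups (0.116). NFE2L2 was gained without CFZ replicate 2 (0.0461) or DMSO replicate 3 (0.0173), HSBP1 without CFZ replicate 1 (0.0495) or DMSO replicate 3 (0.031), and PSMD7 without DMSO replicate 2 (0.0288). The cause of these changes was not tested. At 2913987 to 3790298 counts per library, genes of few counts have wide errors.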

Other observations

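Counts for gene groups outside the stress pathways are read here against 14.1% of all genes higher and 12.8% lower with CFZ at 6 h (edgeR). For DESeq2 the matching counts were 987 higher and 741 lower of 15751 genes, not all of which received an adjusted p. For total count scaling they were 648 higher and 3459 lower of 10470. Of 18 interferon-stimulated genes 7 rose (38.9%), with a median log2 fold change of 0.22, whereas DESeq2 called 3 of 19 (15.8%), and with total count scaling 3 rose and 1 fell. IRF1, a factor of the interferon response, had 125, 126 and 119.6 CPM with CFZ and 45.1, 46.3 and 47.1 CPM with DMSO (log2 fold change 1.42 ± 0.085, adjusted p = 2.6e-11, edgeR), and RSAD2 (viperin) rose (log2 fold change 1.72 ± 0.355, adjusted p = 0.000851, edgeR). The groups were apart for IRF1. Of 21 genes of sterol synthesis 8 fell (38.1%) and 3 rose (14.3%), with a median of −0.13, and scaled by total counts 12 fell and 1 rose.

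Of 11 tubulin and actin genes 5 rose and 3 fell, and scaled by total counts 4 rose and 5 fell. TUBB2A rose (log2 fold change 1.23 ± 0.274, adjusted p = 0.00178, edgeR), but 33.7% of its 31-base words are shared with other transcripts, while ACTB, the cytoplasmic actin, had 1979, 1992 and 2067 CPM with CFZ and 2709, 2753 and 2550.1 CPM with DMSO (log2 fold change −0.41 ± 0.048, adjusted p = 1.35e-06, edgeR). Of 13 splicing genes 6 rose (46.2%) and 1 fell (7.69%), with total count scaling 1 rose and 5 fell, and CLK1, a kinase of splicing factors, had 301, 296 and 239 CPM with CFZ and 120.5, 136 and 139 CPM with DMSO (log2 fold change 1.08 ± 0.087, adjusted p = 3.81e-09, edgeR). In both genes the groups did not overlap. Of 24 nucleolar factors 3 rose (12.5%) and 4 fell (16.7%), shares near those of all genes, from NOP58, a part of small nucleolar RNPs (log2 fold change 0.64 ± 0.072, adjusted p = 7.23e-07, edgeR), to WDR12, a factor of large subunit assembly (log2 fold change −0.45 ± 0.093, adjusted p = 0.000792, edgeR). With total count scaling 1 rose and 11 fell. Of 8 tested histone genes H2BC11 rose (log2 fold change 0.67 ± 0.208, adjusted p = 0.0206, edgeR) and H2AC6 fell (log2 fold change −0.30 ± 0.10, adjusted p = 0.0311, edgeR), neither of them called by DESeq2 (adjusted p = 0.167 and 0.185), and the selection of polyadenylated RNA leaves out most histone RNA.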
